A study of Homo sapiens with 2 samples.

Results

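The late cornified envelope (LCE) genes of groups 2 and 3 were examined in Ca9-22, a human OSCC (oral squamous cell carcinoma) line of gingival origin. One culture had been infected with a DLEU1 lentivirus, DLEU1 being a long noncoding RNA, and the other with a control lentiviral vector. Both were selected with blasticidin, given in the labels as 6 mg/ml for 2 weeks, and total RNA of each was hybridised to 1 Agilent 1-colour array. The genes were those probes, other than control spots, whose gene name in the files was LCE2A, LCE2B, LCE2C, LCE2D, LCE3A, LCE3B, LCE3C, LCE3D or LCE3E, which gave 9 of the 43317 gene names on the array. Each of the 9 genes had 1 probe and each probe had 1 spot. The vector carried the full-length DLEU1 cDNA, so DLEU1 was expressed outside its own locus. Nothing in the labels says whether the cells were a pool or a clone.

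With 1 array per group there was no replicate, and no test, p-value or replicate SD could be given. Every difference below compares 2 RNA samples, and the number of arrays limits its precision. Fewer cells with a transcript and less transcript per cell could not be told apart in such bulk RNA. Both arrays were on 1 slide and in 1 scan.

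LCE genes encode small cysteine- and glycine-rich proteins that transglutaminases cross-link to the inside of the cornified envelope, the protein shell that replaces the plasma membrane of a keratinocyte at the end of its differentiation. They lie together in the epidermal differentiation complex on 1q21, beside the genes for loricrin, involucrin, filaggrin and the small proline-rich (SPRR) proteins. Group 2 genes are known mainly from the uppermost layers of healthy epidermis. Group 3 genes are known for low expression in healthy skin and high expression after barrier injury and in psoriasis, and their proteins have been described as antibacterial. A common germline deletion that removes LCE3B and LCE3C has been associated with psoriasis.

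All 9 genes were well above background with the DLEU1 vector, and 4 of the 9 were with the control vector. These 4 were all LCE3 genes, and no LCE2 gene was well above background with the control vector. Of the genes detected on both arrays, LCE3D and LCE3E differed most, by 8.07 and 6.18 on the log2 scale. The 4 LCE2 genes and LCE3C passed detection on the DLEU1 vector array alone, and their folds are lower bounds between 6.47 and 45.4, which have no order against LCE3D and LCE3E. LCE3A was the exception, 1.72-fold higher.

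The probes run from position 152538313 to 152671918 on chromosome 1 (hg19) in the order LCE3E, LCE3D, LCE3C, LCE3B, LCE3A, LCE2D, LCE2C, LCE2B, LCE2A. The probes of LCE3E, LCE3D and LCE3A match the minus strand and the other 6 the plus strand. No genome or annotation of hg19 was used here, so exon and UTR positions are not stated. Because these genes arose by duplication, the sequences that measured them matter for telling one from another. The 60-base probes of LCE3A, LCE3B and LCE3C are shown whole, 5′ to 3′, as the file gives them. They lie at 152595315 to 152595374, at 152586425 to 152586484 and at 152573309 to 152573368.
LCE3A: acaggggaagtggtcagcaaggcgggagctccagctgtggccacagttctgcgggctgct
LCE3B: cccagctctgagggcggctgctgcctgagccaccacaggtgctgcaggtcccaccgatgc
LCE3C: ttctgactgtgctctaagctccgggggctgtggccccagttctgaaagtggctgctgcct

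The first 30 bases of the probes of the pair with the largest differences among the 4 genes detected on both arrays, LCE3D (152551958 to 152552017) and LCE3E (152538313 to 152538372), are shown next.
LCE3D: gagctaggggttttcctgtggaaggtctga
LCE3E: gaggaaacaagaatcccaagaggccaagaa

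Among the 9 probes the longest stretch shared by any pair was 14 bases, between LCE2B (152659668 to 152659727) and LCE2D (152636913 to 152636972). It is in capitals in 30 bases of each probe.
LCE2B: taagaacctcCTACAGCCTGATGCttaacc
LCE2D: aatggtcaaaaacctgCTACAGCCTGATGC

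Against the 58192 other probes of the array, the longest shared stretch of a member ranged from 13 to 17 bases. None of those probes shared 20 bases or more with a member. How far a transcript of one LCE gene binds the probe of another was not tested. Probe GC content ranged from 40% to 70%.

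The values given below are the processed signal, an intensity from which the scanner software had subtracted the background, with the software's own error, and the level, which is its log2 minus the 75th percentile of all probes of that array. A difference is always the level with the DLEU1 vector minus that with the control vector. The 75th percentile was 7.92 on the control array and 7.88 on the other, and 47.6% and 48.1% of the probes were well above background. The SD of the log2 difference between replicated spots was 0.080 over 282 probes, and 0.338 over the 4 of them whose control vector signal was under 100, as that of every LCE2 and LCE3 gene was. Median differences of the 100 nearest lit spots around each member lay between -0.14 and 0.03. A strip of 3 columns of the DLEU1 vector array, where 26.9% of lit probes were low against 13% outside, held none of the members. The LCE3E spot was in the column next to it.

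DLEU1, the gene carried by the vector, was higher in the cells labelled DLEU1. The level of its brightest probe went from 3.17 on the control array to 5.91, which is 6.67-fold. Its dimmer probes differed by 0.85 and 0.54. All 8 epithelial markers (KRT5, KRT14, KRT17, TP63, CDH1, EPCAM, ITGA6 and ITGB4) were well above background, and their signals summed to 101750 on the control array and 241409 on the other. Of these 8, 5 were higher and 3 were lower, from -0.78 for EPCAM to 3.09 for KRT17, and the keratins KRT5 (2.10), KRT14 (2.85) and KRT17 had the largest differences. Of the 6 fibroblast markers, COL1A2, COL3A1 and DCN were not well above background on either array, COL1A1 differed by 3.99, PDGFRB by -0.33, and LUM was at least 2.47-fold higher, with summed signals of 375 and 5292. Of the 4 endothelial markers, PECAM1 and KDR were not well above background, VWF differed by 3.70 and CDH5 by -0.59, with sums of 111 and 652. Leukocyte markers summed to 361 and 284 over 5 genes, and melanocyte markers to 440 and 413 over 4 genes, with CD3E, MLANA and TYR not well above background on either array. Their differences ran from -1.60 for CD14 to 0.45 for PTPRC and from -0.96 for DCT to 0.10 for PMEL. The part of any other cell type in the LCE values was not tested.

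The LCE3 genes are described first. LCE3D gave a processed signal of 30.3 ± 4.60 (software error) on the control array and 7910 ± 791 on the DLEU1 vector array. On the level scale this was -3.00 and 5.07, a difference of 8.07 ± 0.26 (software error), or 268-fold. Before background subtraction the raw signal of the spot was 61.6 and 7693. The LCE3D spot was dim with the control vector and far above every negative control spot with the DLEU1 vector.

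LCE3E, its neighbour on the map, gave a processed signal of 17.6 ± 3.77 on the control array and 1240 ± 124 on the DLEU1 vector array. Its level was -3.78 and 2.39, a difference of 6.18 ± 0.34, or 72.4-fold. With the control vector it lay just above the lowest signal called well above background on that array, 14.2. The size of its fold therefore rests on a spot whose raw signal was 50, where the negative control spots had a median of 30.6.

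LCE3B, one of the genes lost in the common deletion, gave a processed signal of 85.9 ± 9.18 on the control array and 505 ± 50.6 on the DLEU1 vector array. Its level was -1.50 and 1.10, a difference of 2.59 ± 0.21, or 6.03-fold. It was well above background on both arrays, and its raw signal of 122 and 540 lay above every negative control spot on each.

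LCE3C, the other gene of that deletion, had a processed signal of 10.3 with the control vector, which was not well above background, and 89.5 ± 9.43 with the DLEU1 vector. It was at least 6.47-fold higher (a bound of 2.69). Its raw signal with the control vector, 45.7, was above that of all 308 negative control spots, so the LCE3C spot was dim there but not at the level of the negative controls.

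LCE3A gave a processed signal of 41.3 ± 5.26 on the control array and 69.2 ± 7.66 on the DLEU1 vector array. Its level was -2.55 and -1.77, a difference of 0.78 ± 0.24, or 1.72-fold. This is below 2-fold, and without replicates it cannot be said whether it exceeds the difference between 2 cultures.

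The LCE2 genes, by contrast, were at or near the negative controls with the control vector. LCE2C (probe at 152648941 to 152648999) had a processed signal of 628 ± 62.9 with the DLEU1 vector and was at least 45.4-fold higher. Its raw signal was 31.2 on the control array and 646 on the DLEU1 vector array. With the control vector 136 of the 308 negative control spots were as bright or brighter, and with the DLEU1 vector 0 were.

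LCE2D had a processed signal of 259 ± 26.1 with the DLEU1 vector and was at least 18.7-fold higher. Its raw signal was 34.7 and 282, and 30 of the 308 negative control spots were at least as bright with the control vector. LCE2B had a processed signal of 165 ± 16.8 and was at least 11.9-fold higher. Its raw signal was 29.7 and 194, and 196 of the 308 negative control spots were at least as bright with the control vector. For LCE2B, LCE2C and LCE2D the control vector signal of 3.42, 3.32 and 3.47 was a surrogate that the software sets for spots it cannot tell from background, so these 3 values have no order.

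LCE2A (probe at 152671859 to 152671918) gave a processed signal of 5.42 on the control array and 108 ± 11.3 with DLEU1, and was at least 7.79-fold higher. Its raw signal was 38.5 and 140, and 3 of the 308 negative control spots were at least as bright with the control vector. Unlike the other LCE2 probes it carried no surrogate. Each bound sets the mean level with the DLEU1 vector against the lowest level called well above background with the control vector, -4.09, so the bounds order the genes only by their own brightness with the DLEU1 vector.

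**Figure D1:**
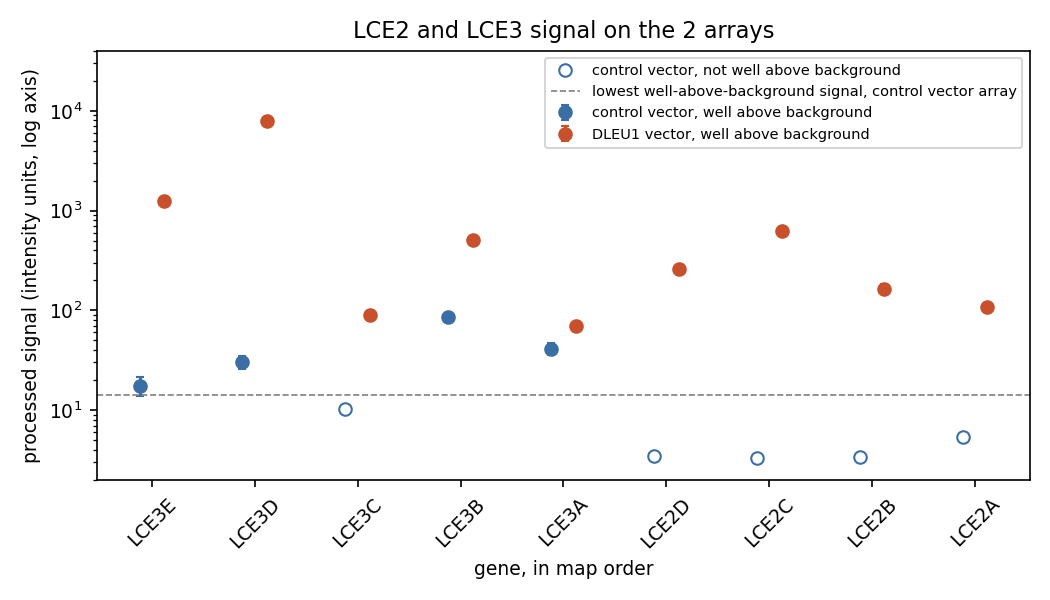
Processed signal (intensity units, log axis) of the 1 probe of each LCE2 and LCE3 gene, in map order, with the control vector (blue) and the DLEU1 vector (red); filled points are well above background, open points are not, bars are the scanner software's error and most are smaller than the points. The 4 LCE2 genes and LCE3C lie below the dashed line, the lowest well-above-background signal of the control vector array (14.2), with the control vector only, and LCE3A shows the smallest gap.

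**Figure D2:**
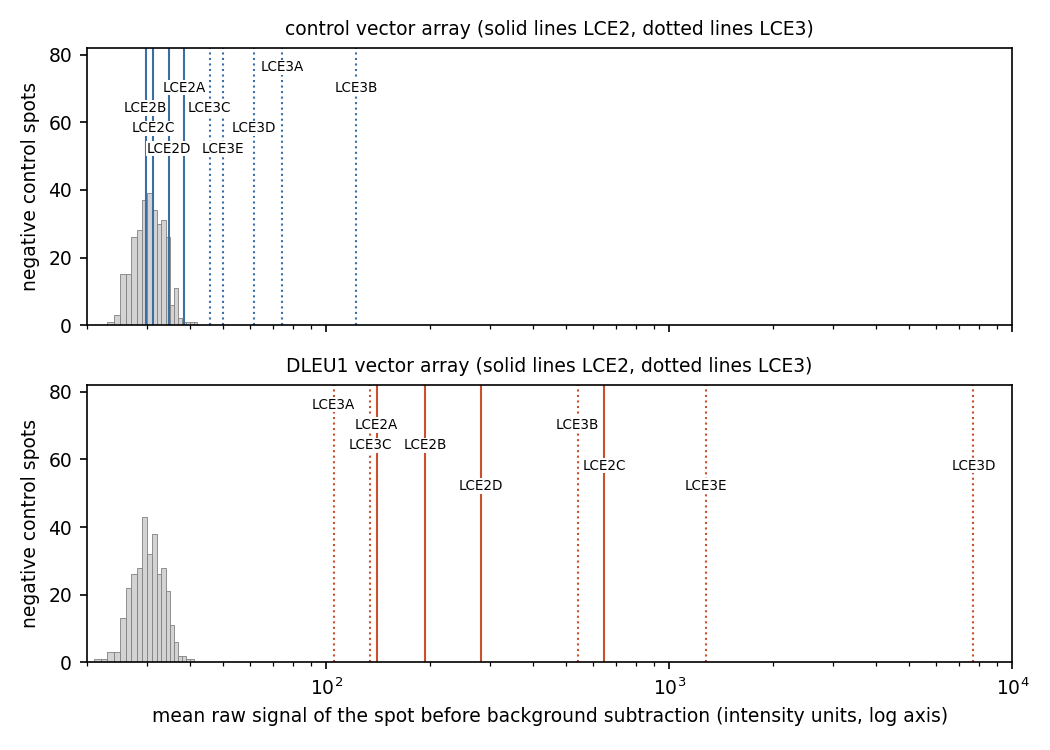
Raw spot signal before background subtraction (intensity units, log axis) of LCE2 genes (solid lines) and LCE3 genes (dotted lines) over the distribution of the 308 negative control spots (grey bars, number of spots), for each array. With the control vector the LCE2 lines fall within the range of the negative controls (23.4 to 41.8) and the LCE3 lines above it, and with the DLEU1 vector all 9 lie above the highest negative control (40.2).

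Across the group, 3 of the 4 members detected on both arrays were at least 2-fold higher with the DLEU1 vector, where 9.18% of the 20246 genes detected on both arrays were. Counting bounds, 8 of the 9 members were at least 2-fold higher, against 10.2% of the 22543 genes detected on at least 1 array. The members detected with the DLEU1 vector only numbered 5 of 9, against 5.47% of those 22543 genes. None of the 4 members detected on both arrays was lower, and no member was detected with the control vector only. For the 5 detected with the DLEU1 vector only, the way a bound is set gives its upward direction. These shares describe a pair of arrays and genes that lie side by side, and members are not independent replicates.

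The median difference of the 4 members detected on both arrays was 4.39, while over all genes detected on both arrays it was -0.07. With the other 5 members at their bounds, the median over 9 was at least 3.58. The median was at least 3.90 over the LCE2 genes and at least 2.69 over the LCE3 genes. The median bound of the 1232 genes detected with the DLEU1 vector only was 0.77. By size of difference LCE3D ranked 3, LCE3E 9, LCE3B 190 and LCE3A 2650 of the 20246 genes. By size of bound LCE2C ranked 10, LCE2D 28, LCE2B 39, LCE2A 61 and LCE3C 78 of the 1232 genes.

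The LCE3 genes differed widely among themselves. From LCE3D to LCE3E, LCE3B and LCE3A the differences fell in that order. Neighbours in it lay apart by more than the sum of their software errors, which cover the scan of 1 spot and not the spread between cultures, so the order describes these 2 RNA samples. The same order held under all 13 other settings in which the 4 genes had a value. Most of these settings leave the 4 values unchanged or shift them alike, so they could not change the order. Only quantile normalization, loess scaling and the background correction given next could, and the order held under them. LCE3A stayed below 2-fold in each of the 13 settings, between 0.32 with scaling to the spike-in controls and 0.89 with the 75th percentile taken over detected probes only. A different background correction (normexp), which also adds an offset of 50 to every spot, lowered the difference of LCE3E to 4.05 and of LCE3D to 6.40. Such an offset by itself lowers the folds of dim spots, and its share was not separated. The same correction lowered the bounds to 3.19 for LCE2C, 2.08 for LCE2D, 1.60 for LCE2B, 1.20 for LCE2A and 1.14 for LCE3C. The difference of LCE3B fell to 1.94. All 8 genes stayed above 2-fold under it.

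**Figure D3:**
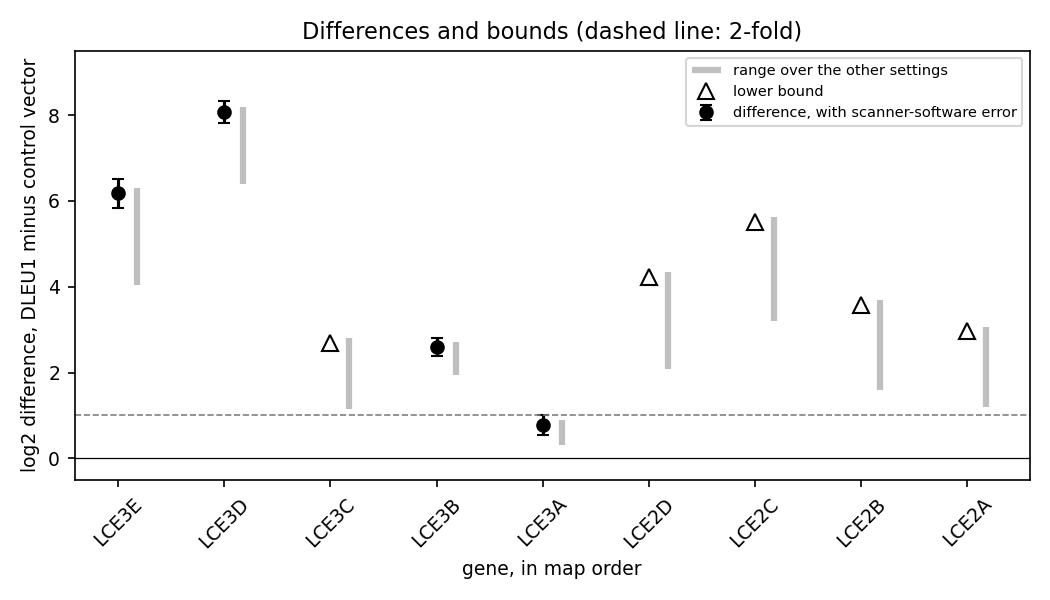
Log2 difference (filled points, bars are the scanner software's error) or lower bound (open triangles) of each gene, DLEU1 vector minus control vector, in map order, with the range over the other processing settings as a grey bar and 2-fold as a dashed line. LCE3D (8.07) and LCE3E (6.18) are the highest filled points, the triangles have no upper limit, LCE3A (0.78) lies below 2-fold with its whole range, and the other genes lie above it with theirs.

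**Figure D4:**
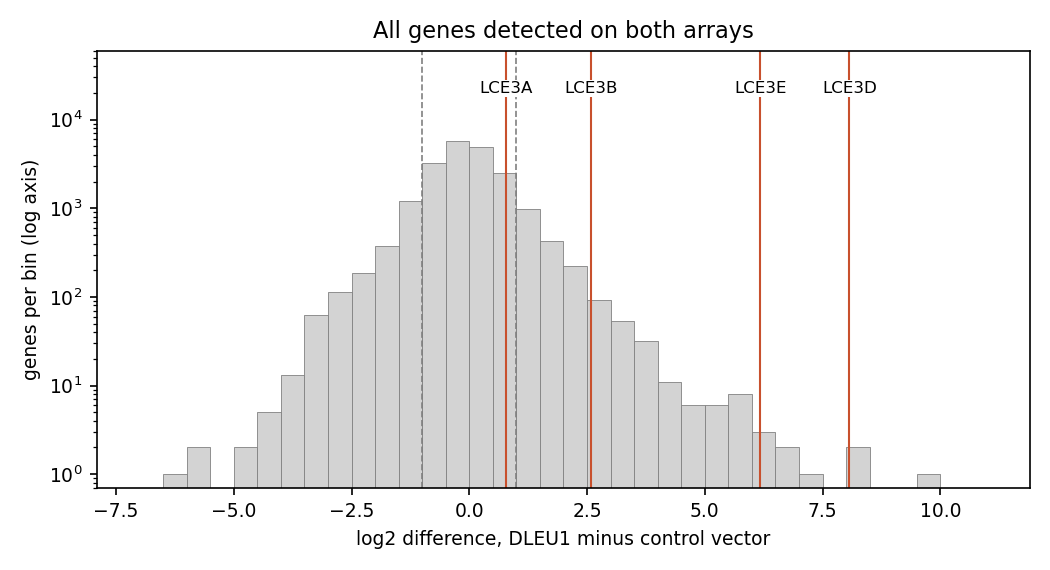
Number of genes per bin of log2 difference (log axis) over the 20246 genes detected on both arrays, with the 4 members detected on both arrays as red lines and 2-fold either way as dashed lines. LCE3D and LCE3E lie in the sparse upper end and LCE3A (0.78) within the main body.

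The other LCE genes were set beside them. LCE1F had no probe under that name. Of the other 8, the 5 LCE1 genes were detected on both arrays, with differences of 0.80 for LCE1A, 3.14 for LCE1B, 0.70 for LCE1C, 0.28 for LCE1D and 2.30 for LCE1E. LCE1C had a second probe that differed by 1.98, so its value depends on the probe. LCE1B and LCE1E were at least 2-fold higher, which is 2 of 5 beside 3 of 4 for the LCE3 genes (bounds included, 3 of the 7 detected beside 8 of 9 members), and the median of the 5 was 0.80 beside 4.39. LCE6A was detected with the DLEU1 vector only and was at least 12.7-fold higher, LCE5A likewise with a bound of 1.43-fold, and LCE4A, next to LCE2A on the map, was not well above background on either array. The processed signal with the control vector was 43005 for LCE1D, 2686 for the LCE1C probe used and 2609 for LCE1A. It was 452 for LCE1E and 48.8 for LCE1B, while every member was under 100. The LCE1 genes thus mostly started brighter, and with 1 array per group their contrast with groups 2 and 3 was not tested.

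On the map, LCE3A lay between LCE3B (2.59) and LCE2D (at least 4.22). Between them lay further probes, which are named here after their values were seen. XLOC_l2_001122 differed by 0.37. At the noncoding gene LINC00302 one probe was well above background with the control vector only (at least 1.58-fold lower), while another, named by its transcript ENST00000444515, had levels of -2.88 and 2.10 and was 31.6-fold higher. The LINC00302 probe was dim, with a processed signal of 23.2 on the control array and 8.95 on the other. The lowest signal called well above background on the control array was 14.2. The opposite direction of the probes at that locus thus rests on a spot near the detection limit.

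In the rest of the complex, the 7 SPRR genes detected on both arrays were all at least 2-fold higher, from 2.22 for SPRR2D to 9.88 for SPRR3, with a median of 5.84. Bounds included, 9 of the 9 detected were. SPRR proteins are cross-linked into the envelope as flexible bridges. Of the 10 single genes, IVL (involucrin, an early envelope scaffold) differed by 5.84 and KPRP by 5.75, 6 passed detection on the DLEU1 vector array alone, C1orf68 on the control array alone (at least 4.36-fold lower), and LELP1 on neither array. Bounds included, 6 of the 9 detected were at least 2-fold higher. Of the 7 fused S100 genes, FLG (filaggrin) differed by 3.52, 4 passed on the DLEU1 vector array alone and 2 on neither, and 5 of the 5 detected were at least 2-fold higher, bounds included. The S100 genes of 1q21 held 11 genes detected on both arrays with a median of 0.57 and 1 at least 2-fold higher, S100A7 (2.81), and the lowest was S100A16 (-0.28). The S100 genes detected with DLEU1 alone, named after their values were seen, were S100A8 (at least 43.8-fold higher), S100A9 (at least 31.1-fold) and S100A12 (at least 3.35-fold). With them 4 of 14 S100 genes were at least 2-fold higher, beside 8 of 9 members and 10.2% of all genes.

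**Figure D5:**
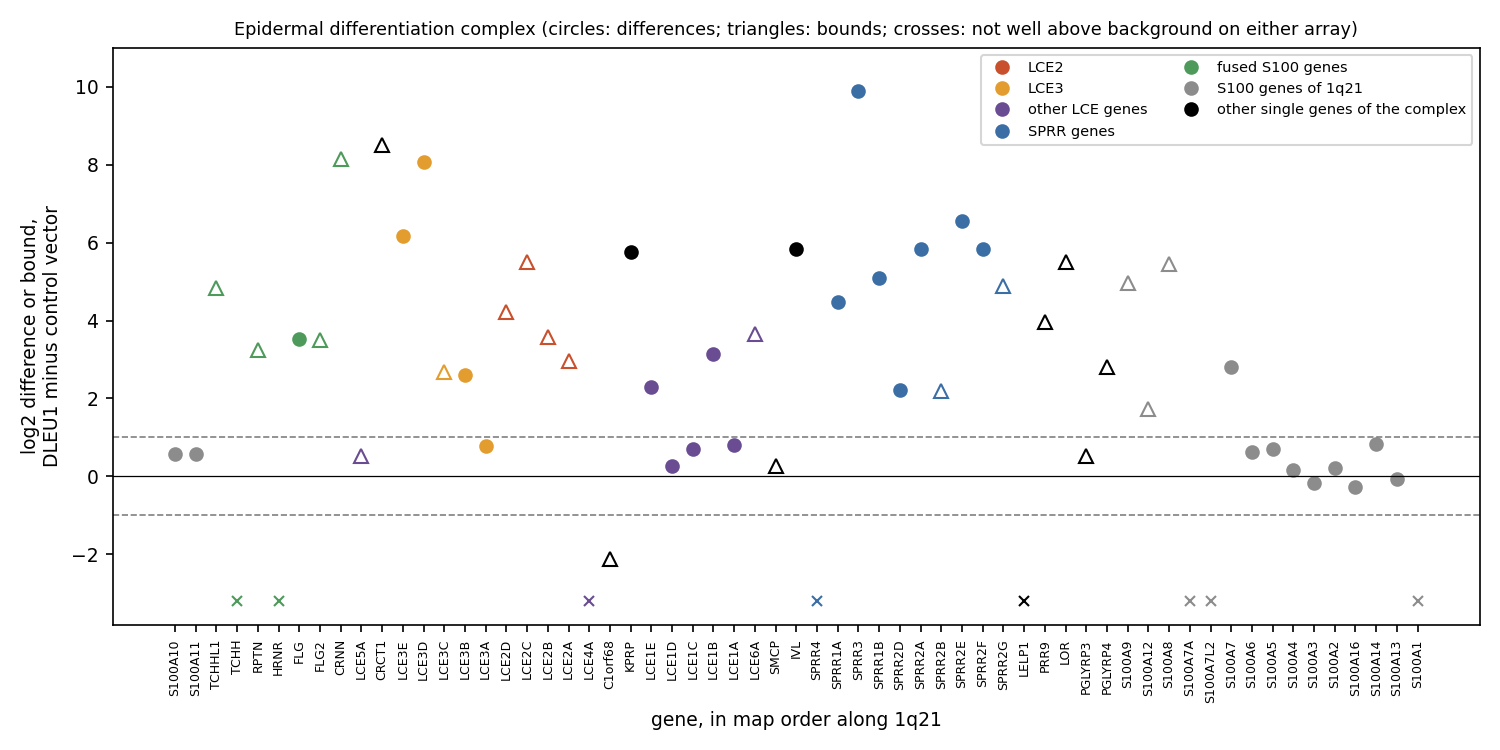
Log2 difference (circles) or bound (triangles) of each gene of the epidermal differentiation complex on 1q21, DLEU1 vector minus control vector, in map order, coloured by gene group; crosses mark genes not well above background on either array and dashed lines mark 2-fold. LCE3E to LCE2A lie above 0 throughout, with LCE3A (0.78) lowest, and 4 of the 14 S100 genes plotted with a value lie above 2-fold.

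Of 8 genes of envelope cross-linking and scaffold, 5 were detected on both arrays with a median of 1.37, 3 of them at least 2-fold higher. They ran from 0.45 for EVPL, the scaffold protein envoplakin, to 2.49 for TGM1, the membrane-bound transglutaminase of keratinocytes. CDSN (corneodesmosin, a protein of the junctions between cornified cells) and TGM5 were detected with DLEU1 alone, at least 110-fold and 2.21-fold higher, so 5 of the 7 detected passed 2-fold. TGM3, another transglutaminase of the epidermis, was not well above background on either array. With only 2 arrays, likeness to the members is a single difference. Nearest to their median of 4.39 were UNC5B-AS1 (4.40), SLURP1 (4.41), LYPD1 (4.46), BMF (4.46) and SPRR1A (4.47).

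The sequence before the start sites of the members was also compared. RefSeq (GRCh38.p14) gave a window of 250 bases before to 50 after the start for all 9 genes. The RefSeq models of LCE3A and LCE3B are 270 and 288 bases long, against 853 or more for the other members, so their annotated starts may not be comparable. The 100 bases before the start are shown for a pair of LCE2 genes and for LCE3C, LCE3D and LCE3E, in the direction of transcription. Capitals mark the TATA-like run and the match to TTNCNNAA, the letters used for a C/EBP site. In all the sequences shown that match reads on the opposite strand, so the capitals give its complement read backwards. LCE2A lies at chr1:152698245-152698344, LCE2C at chr1:152675179-152675278 and LCE3C at chr1:152600134-152600233, all on the plus strand. LCE3D lies at chr1:152580517-152580616 and LCE3E at chr1:152566781-152566880, on the minus strand.
LCE2A: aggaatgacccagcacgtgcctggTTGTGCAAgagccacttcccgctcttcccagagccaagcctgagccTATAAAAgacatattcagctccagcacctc
LCE2C: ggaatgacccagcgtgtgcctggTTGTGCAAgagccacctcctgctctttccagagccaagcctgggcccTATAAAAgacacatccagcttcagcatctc
LCE3C: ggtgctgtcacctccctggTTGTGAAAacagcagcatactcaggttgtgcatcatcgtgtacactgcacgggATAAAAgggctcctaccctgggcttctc
LCE3D: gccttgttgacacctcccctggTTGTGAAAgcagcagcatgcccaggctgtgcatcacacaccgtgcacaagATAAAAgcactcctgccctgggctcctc
LCE3E: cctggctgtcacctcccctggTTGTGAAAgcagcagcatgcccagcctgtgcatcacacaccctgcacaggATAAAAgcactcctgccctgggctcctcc

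The LCE2 genes carried TATAAA within 50 bases before the start on the sense strand, 4 of 4, and no LCE3 gene did. Of all 35116 RefSeq windows 2.63% held it there, as did 2 of 9 windows of other LCE genes. The shorter run ATAAAA, which overlaps TATAAA and was chosen after these sequences were seen, stood there in 7 members (the LCE2 genes, LCE3C, LCE3D and LCE3E), against 2.26% of all windows and 6 of 9 windows of other LCE genes. The first base of the run lay between 28 and 45 bases before the start.

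With either strand and the whole window counted, TTNCNNAA stood in 8 members, all but LCE3A, and in 36.8% of all windows. Of the 9 windows of other LCE genes 5 held it. In the LCE2 genes a match began between 76 and 93 bases before the start and in LCE3C, LCE3D and LCE3E between 78 and 81 bases before it. CACCC, the letters used for a Kruppel-like factor site, stood in 4 members, in 59.9% of all windows and in 7 of 9 windows of other LCE genes. No member window held TGANTCA for AP-1 (7.71% of all windows), AACCNGTT for grainyhead-like factors (1.73%) or GAAANNGAA for an interferon response element (8.11%). A match is a description of the letters and not of binding, and the lack of a match says only that these letters are not in this window.

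Within the 250 bases before the start, identity was 71.5% to 92.0% over the 6 pairs of LCE2 genes and 57.8% to 68.3% over the 3 pairs of LCE3C, LCE3D and LCE3E. Between these groups it was 45.2% to 53.6% over 12 pairs. All columns of the alignment were counted, gaps included. No baseline from unrelated promoters is given, so the lower values are not read as likeness. LCE3A and LCE3B were 59.3% identical, and each of them was 43.3% to 48.2% identical to the other 7 members, over 14 pairs. In LCE3C and LCE3D the run ATAAAA began 28 bases before the start. A match to TTNCNNAA began 81 bases before it in LCE3C and 78 bases before it in LCE3D. LCE3D held a further match that began 141 bases before the start. The bound of LCE3C was 6.47-fold and LCE3D differed 268-fold. Since the fold of LCE3C is a lower bound, the size of the gap between these folds is not known. Whether the letters bear on the folds was not tested.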

How the data were processed

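Total RNA of Ca9-22 cells with a control or a DLEU1 lentiviral vector was labelled with Cy3 and hybridised to SurePrint G3 Human GE v3 arrays, 1 per group. The deposited files held intensity from Agilent's Feature Extraction software (10.7.3.1). Its headers state that background was subtracted and the signal detrended, and it gave spots that cannot be told from background a surrogate value. The authors' series values were the same intensity, rounded, and differed by at most 0.497%. Neither was normalized between arrays.

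Of 62976 spots per array, control spots and 84 and 103 outlier spots were left out, and 0 and 0 were saturated. The log2 processed signal was averaged per probe and the array's 75th percentile subtracted. A probe was detected where the software marked it well above background, and a gene took its brightest probe detected on both arrays. A gene detected on 1 array only has a bound against the higher of the lowest well-above-background level and its own level there. Calls were made at 2-fold, with no test. The members, the gene lists and the motifs were chosen with earlier results of these data known. Named were all members, DLEU1, all other LCE genes, the markers given for each cell type, the extremes of the other lists among genes detected on both arrays and the 5 genes nearest to the members' median. Further genes were named after their values were seen. Python 3.11.15, pandas 2.3.3, Biopython 1.88, R 4.3.3 and limma 3.58.1 (normexp with an offset of 50) were used, and the steps were tested on simulated data. Of the 9 member symbols, 9 matched the RefSeq gene table. Alternatives were the scaling, the background correction, the filter on dim probes, the series values, the choice of probe, the strip of low columns and the fold threshold.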

Additional observations from a re-analysis of the deposited data

How the results depend on the processing

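No paired analysis was possible because each group held 1 array and the labels gave no shared replicate numbers, and for the same reason no array could be left out. Single members gave 117 values under other settings, of which 0 changed direction. The bounds among them point upward by the way a bound is set. Most settings leave the differences unchanged or shift them alike, so direction could hardly change. Of the 117 values, 70 moved by less than the SD of replicated spots, 0.08, and 47 moved by more. That SD covers all replicated probes, and over those dim with the control vector, as the members were, it was 0.338. Several settings, such as leaving out saturated spots or the strip, could hardly move a member, so the split does not measure stability. The median difference of the members, 4.39, became 4.27 under median scaling, 4.50 when the 75th percentile was taken over detected probes, 3.92 under spike-in scaling and 2.99 under normexp. It was 5.63 with no filter on dim probes and 5.63 with detection on at least 1 array. There LCE2A and LCE3C enter at their dim control vector signal. LCE2B, LCE2C and LCE2D enter at the surrogate the software set for them. The 5.63 is the value of LCE2B, so it rests on a surrogate. The number of members at least 2-fold higher, 3, was 8 under each of those filters. Where both arrays had to reach a signal of 100 it was 0, bounds included 0, because no member reached that signal with the control vector. All genes at least 2-fold higher numbered 1858 and lower 1981. Higher genes were 924 with spike-in scaling, 1121 with normexp, 4232 with no filter on dim probes, 1026 with a signal of at least 100, 3731 at 1.5-fold and 774 at 3-fold. Lower genes were 4875 with spike-in scaling, 3807 with no filter, 4459 at 1.5-fold and 671 at 3-fold. Higher genes made up 48.4% of the called genes, against 39% under median scaling, 58.4% under the percentile of detected probes and 15.9% with spike-in scaling, which shifted the median of all genes by -0.46. The signal over background also limits the members. Every control vector signal was under 100. The fold sizes of LCE3D and LCE3E and all 5 bounds depend on how the background was corrected, including the offset that normexp adds.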

Other observations

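The regulators known to act on late keratinocyte genes, a list of 25 transcription factors and receptors, were all detected on both arrays. A total of 10 were at least 2-fold higher with the DLEU1 vector and 1 was lower, and the median difference was 0.80. The highest was ZNF750, a zinc finger factor of terminal epidermal differentiation, with levels of 0.02 and 4.24, a difference of 4.22. The lowest was FOSL1, an AP-1 subunit, with levels of 4.14 and 0.09, a difference of -4.05. Whether these values bear on the LCE2 and LCE3 genes was not tested.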
